A study of Canis lupus familiaris with 2 samples.

Results

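The miR-181 family was examined in the serum of dystrophic and normal dogs. Its members on the chip were taken by name, as every dog miRNA named miR-181 with or without a letter, and 4 of the 291 dog miRNAs met this rule: cfa-miR-181a, cfa-miR-181b, cfa-miR-181c and cfa-miR-181d. The dystrophic dogs were affected males of the CXMD_J colony, a canine model of Duchenne muscular dystrophy with an X-linked defect of dystrophin, and the controls were unaffected males of the same age, 2 months. Serum of 3 dogs was pooled for each condition, and the labelled RNA of each pool was hybridized to 1 chip of 1 color. With 1 array for each pool and 1 spot for each miRNA, the spread between dogs is unknown, and the comparisons below are descriptive.

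miR-181 miRNAs are short RNAs that share a seed, the stretch near the 5′ end by which a miRNA recognizes its target mRNAs. They are known for their roles in blood cells, where miR-181a tunes the sensitivity of developing T cells to antigen and miR-181 promotes the B-cell lineage. In skeletal muscle the family is known to rise as myoblasts differentiate, and miR-181b is known to restrain inflammatory signaling in the endothelium. Because the members differ in few bases, RNA of one member can bind the probe of another, and the share of each in a spot is uncertain.

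Of the 4 members, 2 were detected in normal serum, miR-181a and miR-181b, and 2 in dystrophic serum, miR-181a and miR-181d. Only miR-181a was above the detection limit on both arrays, and miR-181c was on neither. These calls depended on the background and the limit, and under 4 alternative settings no member was detected on either array. A ratio was formed only for miRNAs detected on both arrays, and that of miR-181a, dystrophic over normal, was 0.786. All 8 readings lay close to the blank spots of their array. Detection required a spot brighter than the blank mean by more than 2 SD, both taken after the highest and lowest 5% of blank spots were removed, and a spot marked unusable in the scanner file was not counted, which left out miR-34a in dystrophic serum, whose spot read 204. The limit was 126 units of scanner intensity on the normal array and 124 on the dystrophic array, with a mean blank spot of 118 and 116. Normalized signals are the intensity above that mean, scaled so that the median of the detected miRNAs of an array is 25.

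The detection of the members can be set against that of all miRNAs on the chip. On the normal array 54.6% of the 291 miRNAs were detected, and on the dystrophic array 64.6%, compared with 2 of the 4 members on each. Both arrays detected 48.8% of all miRNAs and 1 of the 4 members, whereas 29.6% of all miRNAs and 1 member were detected on neither. Normal serum alone gave 5.84% of all miRNAs, with miR-181b among them, and dystrophic serum alone gave 15.8%, with miR-181d among them. With 4 members, these counts are a description and do not set the family apart from the other miRNAs.

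cfa-miR-181a, the member best known from T cells, had the brightest spot of the family in both sera, before subtraction of any background. Its spot read 140 on the normal array and 137 on the dystrophic array, 21.6 and 21.4 units above the mean blank spot. The readings therefore differed little before scaling, and their unscaled ratio was 0.989. After scaling, the normalized signal was 22.5 in normal and 17.7 in dystrophic serum. The array factors, 1.04 and 0.827, account for the step from the unscaled to the scaled ratio. The scaled ratio of 0.786 had a 95% spot-noise interval from 0.282 to 2.23. This interval was computed from the spread of the blank spots and from a coefficient of variation of 5.26% between spots of the same bright control probe. It covers spot noise and leaves out differences between dogs, RNA preparations and arrays. The interval includes 1 and extends past the 2-fold limit in both directions.

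The signal of miR-181a was somewhat below the median of the detected miRNAs on both arrays. It ranked 87th of the 291 dog miRNAs on the normal array and 121st on the dystrophic array. Its reading was matched or exceeded by 1.92% of the 1408 blank spots on the normal array and by 1.49% on the dystrophic array. The same held for 6.63% and 8.29% of the positions named as without a probe, and for 8 and 12 of the 32 negative-control spots. The detection limit itself was passed by 9.38% and 8.59% of the blank spots, by 26.5% and 23.8% of the positions without a probe and by 21 and 27 of the negative-control spots, so that detection close to the limit is weak evidence of RNA. The 16 spots of Negative Control 1 averaged 139 ± 8.15 (SD) in normal and 138 ± 7.41 (SD) in dystrophic serum, those of Negative Control 3 averaged 133 and 137, and those of Negative Control 2 averaged 118 and 122. The readings of miR-181a were within the range of controls 1 and 3 and above every spot of control 2. Measured from local background, 1294 and 1353 of the blank spots were at or above the value of miR-181a. The median local background was 92.8 and 99.7 around dog miRNA spots, compared with 77.4 and 80.8 around blank spots. This measure therefore lowers miRNA spots as a group against blank spots, and the result is not particular to miR-181a. The brightest neighbor of the miR-181a spot was a control spot named QC-Probe, which read 654 with normal and 1111 with dystrophic serum. QC-Probe spots were also the brightest neighbors of miR-181b (357 and 393), miR-181c (312 and 249) and miR-181d (155 and 170). The part of these neighbors in the readings of the members was not tested.

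**Figure D1:**
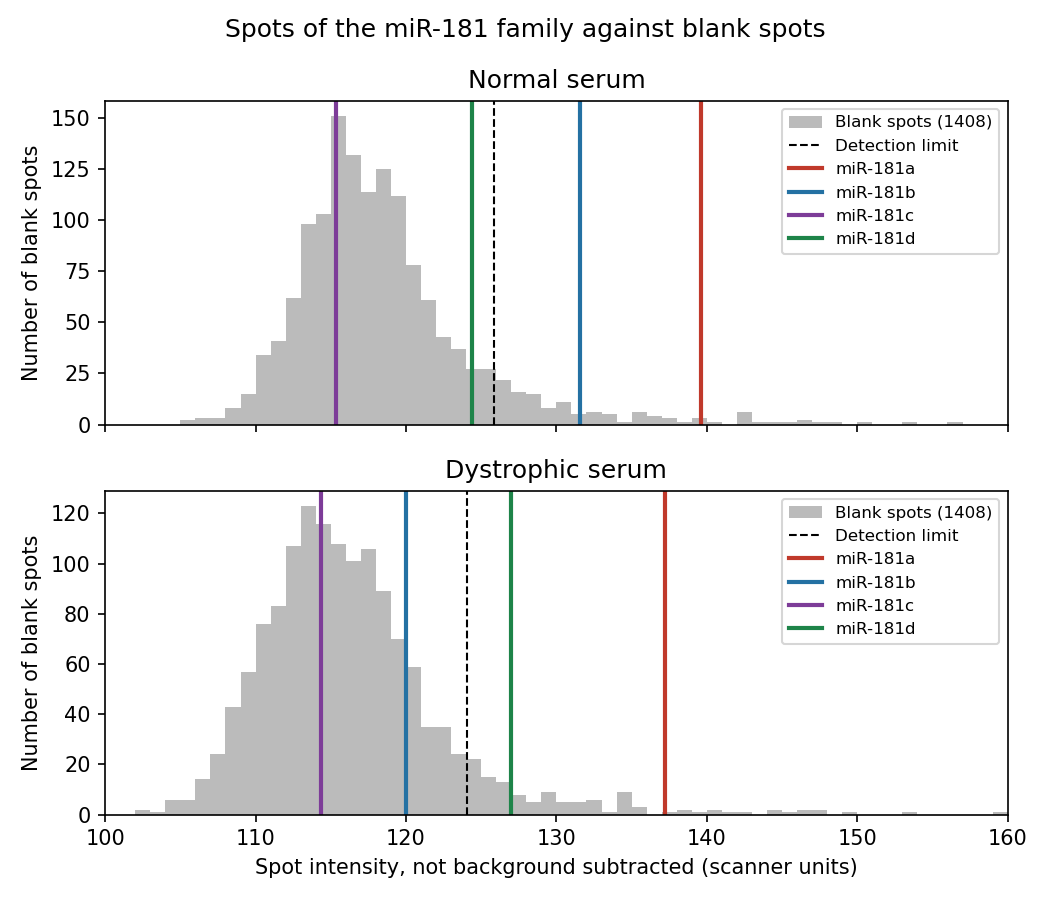
Intensity of the 4 miR-181 spots (colored lines) on the array of normal serum (top) and of dystrophic serum (bottom), in scanner units before background subtraction, over the histogram of the blank spots between 100 and 160 units (gray, number of spots per unit) with the detection limit (dashed). miR-181a stood at 140 and 137, above the limit of 126 and 124, and miR-181c lay among the blank spots on both arrays.

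cfa-miR-181b, which is transcribed together with miR-181a, was detected in normal serum only. Its spot read 132 with normal and 119.99 with dystrophic serum, giving normalized signals of 14.1 and 3.46, the latter below the limit. Set against the lowest signal detected in dystrophic serum, 6.87, the normal signal was 2.05-fold as high. The dystrophic minus normal difference in normalized signal was -10.6 with a 95% spot-noise interval from -27.9 to 6.59, which includes 0. In a comparison chosen after these values were seen, 9.45% of blank spots showed as large a fall at their own position. The surroundings of the spot were also looked at after the values were seen. The mean of the 44 blank spots in its block of the chip changed by -6.92 units between the arrays, compared with -2.20 for the trimmed mean of the whole array. Measured from the blank spots of its block, miR-181b was 12.6 units above background in normal and 7.97 in dystrophic serum, the latter just under the 8.24 units needed for detection. The local background around its spot was 110.3 in normal and 84.2 in dystrophic serum. The median local background was 74.1 and 75.4 for the blank spots of its block, and 92.8 and 99.7 for all dog miRNA spots of the array. Measured from the local background of its own spot, miR-181b was at 21.2 units in normal and 35.8 in dystrophic serum. This reverses the direction of the difference, and blank spots averaged 40.8 and 34.6 by the same measure. The part of the block and of the local background in the difference was not tested.

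cfa-miR-181d was detected in dystrophic serum only, and its 2 readings lay on either side of the limit. Its spot read 124 on the normal array, a distance of -1.46 units from the limit, and 127 on the dystrophic array, 2.91 units above it. The normalized signals were 6.67 and 9.22, and the latter was 1.11-fold the lowest signal detected in normal serum, 8.30. The difference of 2.55 had an interval from -14.6 to 19.7, and 23.0% of blank spots showed as large a rise at their own position. Measured from the blank spots of its own block, miR-181d was 5.56 units above background in normal and 6.19 in dystrophic serum and was detected in neither.

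cfa-miR-181c, the partner of miR-181d in the genome, was below the mean blank spot on both arrays. Its spot read 115 with normal and 114 with dystrophic serum, a reading matched or exceeded by 70.3% and 58.6% of blank spots. Measured from the blank spots of its block it was at -3.59 in normal and 2.32 in dystrophic serum, short of the 7.87 and 8.24 units needed. No ratio was formed. miR-181c was thus not detectable at this signal over background. With the mean blank spot of the array as background, the upper end of its noise interval was 10.8 in normal and 9.28 in dystrophic serum. This limit on the normalized signal holds for that background only. From local background the spot was at 35.0 and 43.7 units, compared with 40.8 and 34.6 for blank spots.

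**Figure D2:**
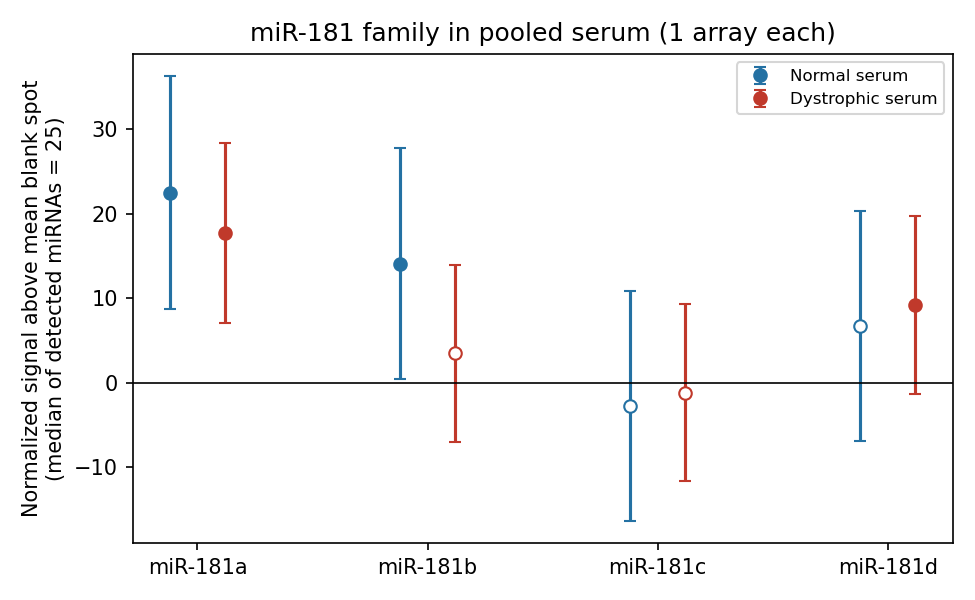
Normalized signal of each miR-181 member above the mean blank spot (vertical axis, scaled so that the median detected miRNA is 25) in normal (blue) and dystrophic (red) serum, 1 array each. Bars are 95% spot-noise intervals, and open circles mark spots that were not detected. The bars of normal and dystrophic serum overlapped for every member, with miR-181a at 22.5 and 17.7.

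Brightness differs between probes for reasons other than the amount of RNA, so the order of the members within an array is an order of spots and not of amounts. In normal serum the order was miR-181a, miR-181b, miR-181d and miR-181c. In dystrophic serum miR-181d stood before miR-181b. No neighbors in either order differed beyond spot noise. The gap between miR-181a and miR-181b in normal serum was 8.40 with an interval from -11.0 to 27.8, and that between miR-181d and miR-181b in dystrophic serum was 5.76 with an interval from -9.11 to 20.6. The only pair whose interval excluded 0 was the first and the last, miR-181a and miR-181c, with a gap of 25.3 in normal (interval 5.92 to 44.6) and 18.9 in dystrophic serum (interval 3.95 to 33.8). The order and this gap depended on the background. Measured from the local background of each spot, miR-181a was at 27.4 in normal and 20.1 in dystrophic serum, miR-181b at 21.2 and 35.8, miR-181c at 35.0 and 43.7 and miR-181d at 31.9 and 42.8, so that miR-181c was highest and the gap changed sign. Added over all 4 members without regard to detection, the normalized signal was 40.5 in normal and 29.2 in dystrophic serum. The ratio of the sums was 0.720 with an interval from 0.185 to 2.46. Before scaling, the direction of the sums depended on the background. The unscaled sums above the mean blank spot were 38.9 in normal and 35.3 in dystrophic serum. Above local background they were 115 and 142, whereas 4 average blank spots sum to 163 and 138 by that measure.

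The place of miR-181a among the other miRNAs can be given for the 142 detected on both arrays. Their median ratio was 1.09, with the middle 50% between 0.806 and 1.58, and 33 of them had a ratio below that of miR-181a. A ratio above 2 was found for 13.4% of the 142 miRNAs and a ratio of 0.5 or less for 5.63%. miR-181a, the only 1 of the 4 members with a ratio, was in neither group, so that 0 members were counted in each. The miRNAs nearest to miR-181a in both signals were miR-708, miR-30c and miR-761, at distances of 0.19, 0.29 and 0.29 on the log2 scale over the 2 arrays. miR-708 had normalized signals of 25.7 and 17.5, miR-30c of 24.6 and 21.1, and miR-761 of 24.9 and 14.9 in normal and dystrophic serum. A total of 11 miRNAs lay within 0.5 of miR-181a on this scale, which compares spot signals and not amounts.

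In the dog genome the family is encoded by 6 miRNA genes in 3 pairs, as annotated by RefSeq on the assembly UU_Cfam_GSD_1.0. MIR181A-1 and MIR181B-1 lie side by side next to PTPRC, which encodes the white-cell surface phosphatase CD45. MIR181A-2 and MIR181B-2 lie side by side within the span of NR6A1, an orphan nuclear receptor gene. miR-181a and miR-181b each come from 2 genes, and the array does not tell these apart. MIR181C and MIR181D lie side by side between NANOS3 and the cluster of MIR23A, MIR27A and MIR24-2, with only uncharacterized long non-coding RNA genes between them and the cluster. The spots of the cluster were well above background while those of miR-181c and miR-181d were not. miR-23a had normalized signals of 284 and 275 in normal and dystrophic serum, a ratio of 0.968. The signals of miR-27a were 79.8 and 115, a ratio of 1.45, and those of miR-24, which a further gene also encodes, were 469 and 501, a ratio of 1.07.

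The miR-181 family is known from blood cells and from differentiating muscle, and other miRNAs of these sources were read on the same arrays. Of 6 white-cell miRNAs, 3 were detected on both arrays, and their ratios were 0.549 for miR-223, which marks myeloid cells and platelets, 0.743 for miR-150 of mature lymphocytes and 2.24 for miR-142, which is found throughout the blood lineages. The normalized signal of miR-223, the brightest of the list, was 206 in normal and 113 in dystrophic serum. The list summed to 304 and 214 with undetected spots included, and miR-146a, miR-146b and miR-155 were detected on neither array. Of the red-cell miRNAs, miR-451 had signals of 1276 and 250.04, a ratio of 0.196, and miR-144 was not detected. In pooled serum, fewer cells shedding a miRNA and less of it per cell cannot be told apart. The part of blood-cell RNA in the readings of miR-181a and miR-181b was not tested.

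The largest ratios of these lists were those of muscle miRNAs. Of the 8 miRNAs specific to skeletal or heart muscle, 4 were detected on both arrays and all 4 were above 2-fold in dystrophic serum, and the list, undetected spots and their negative signals included, summed to 65.0 in normal and 6624 in dystrophic serum. miR-133b, the brightest, had signals of 27.8 and 2426, whereas the heart miRNAs miR-208a and miR-208b were not detected. miR-1 was detected in dystrophic serum only, with a signal of 20.6, and miR-499 in normal serum only, with a signal of 12.3. A further list held 14 miRNAs known to act in myoblast differentiation without being specific to muscle. Of these 12 were detected on both arrays, with a median ratio of 1.13 compared with 1.09 over all 142 miRNAs. A ratio below 1 was found for 59 of the 142 and for 4 of the 12. The other 2 of the 14, miR-222 and miR-26b, were detected in normal serum only, with signals of 14.6 and 12.4. Over all 291 miRNAs, 5.84% were detected in normal serum only. The dystrophic spots of miR-222 and miR-26b read 123.827 and 119.965, and the limit of that array was 124.038. Only miR-27b, with signals of 45.2 and 101 and a ratio of 2.23, was above 2-fold, and none was at 0.5-fold or less. Of miR-221, which acts on the cell cycle of myoblasts, the ratio was 0.555, with signals of 126 and 70.2. The endothelial miR-126 was not detected in either serum, and the liver miRNA miR-122 had signals of 8.63 and 8.14, both close to the limit.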

How the data were processed

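Per the labels and the methods of the paper, serum RNA of each pool was labelled with Cy5 and hybridized to a 3D-Gene chip, and signals were read with 3D-Gene Extraction software, whose version is not given in the sources used here. The authors deposited the spot and local background intensity of each array without normalization, and a table of background-subtracted, globally normalized intensity values with undetected miRNAs left empty. The values reported here were computed from the spot intensity, and the table served as an alternative.

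Of the 1408 blank spots 71 were trimmed at each end before the mean and SD were taken. Spot noise was the width of the central 95% of all blank spots expressed as an SD, 6.66 units for normal and 6.47 for dystrophic serum, combined with the median coefficient of variation of 10 bright control probes. Intervals of ratios follow Fieller's formula. With 1 spot and 1 array each, precision is limited and no p-value was computed. All 4 members are named, with the 3 detected miRNAs nearest to miR-181a and those of the marker lists. The members and lists were chosen with earlier results of these data known. 1 of the red-cell miRNAs, miR-486, was not matched to a spot by name. Gene neighbors came from RefSeq. No miRNA sequences are printed, as no sequence table was used here.

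The ratio and interval steps were tested on simulated data, at signals brighter than those of the miR-181 members. The tests therefore do not cover signals this close to the blank spots. Alternatives concern the source, background, scaling, detection and dim signals. Python 3.11.15, numpy 2.4.6, pandas 2.3.3, R 4.3.3 and limma 3.58.1 were used.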

Additional observations from a re-analysis of the deposited data

How the results depend on the processing

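The ratio of miR-181a ran from 0.630 to 1.03 over the 12 alternatives that gave one, all inside its noise interval. It was below 1 under 10 of them and above 1 with untrimmed blank spots, 1.01, and with scaling to bright control probes, 1.03, so its direction depends on the processing. The ratio of the summed signals ran from 0.476 to 0.949 over 13 alternatives. With local background or the negative controls no ratio of sums was formed, because the sum was below 0 on at least 1 array. For local background, the mean of the blank spots by the same measure was also subtracted. The unscaled sum was then -47.6 in normal and 3.97 in dystrophic serum. With the negative controls it was -17.7 and -35.6.

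Detection depended on the background and on the limit, and did not change without background subtraction or with normexp, for which the calls of the blank mean were kept. The number of members detected in normal serum, dystrophic serum and both was 0, 0 and 0 with local background subtraction, with detection at the 99th percentile of blank spots, with a signal of at least 25 required on both arrays and with the negative controls as background, the last chosen after seeing the data. With untrimmed blank spots 1 was detected in normal and 1 in dystrophic serum, miR-181a each time, and 1 was detected in dystrophic serum with the blank mean of the block and with detection at 3 SD. The cause was not tested.

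Among all miRNAs, the number above 2-fold, 19, and at 0.5-fold or less, 8, became 6 and 1 without background subtraction, 6 and 1 with normexp and an offset of 50, and 6 and 2 with local background. They were 34 and 3 without scaling, 40 and 3 with bright control probes, 12 and 19 with scaling to the miRNAs detected on both arrays and 10 and 22 with quantile normalization. The share above 2-fold of those past either limit, 70.4%, was 91.9%, 93.0%, 38.7% and 31.2% under these scalings, and the median log2 ratio of the 142 miRNAs, 0.13, moved by 0.33, 0.40, -0.28 and -0.39. The other settings also changed the number of miRNAs compared. Detection at 3 SD gave 12 above 2-fold and 9 at 0.5-fold or less, of 118. Detection at the 99th percentile gave 11 and 2 of 67, and a signal of at least 25 gave 8 and 3 of 71. Signals set to the limit gave 29 and 16 of 290. The negative controls gave 5 and 6 of 54, which put fewer above 2-fold than at 0.5-fold or less. The blank mean of the block gave 17 and 5 of 138, and untrimmed blank spots gave 22 and 3 of 99.

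Another scanner gain was not run, because the files used here hold 1 reading per spot. The deposited table also gave no summed signal, since undetected spots are empty there, and detection counts do not apply to signals set to the limit. No paired analysis was possible because the pools came from different dogs, and with 1 array per pool none was left out.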
